A study of Mus musculus with 2 samples.

Results

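This account covers the peaks of 2 SOX transcription factors around Trps1, Arid5b and Zbtb20, 3 genes for nuclear regulators of chondrocytes, in primary rib chondrocytes of mice. A peak is a stretch of the genome called as enriched by chromatin immunoprecipitation and sequencing (ChIP-seq). Members were taken by position alone: every peak with its centre in 1 of 3 windows of the mouse genome build mm9, on chromosome 15 from 50470000 to 50780000 for Trps1 (310 kb), on chromosome 10 from 67540000 to 67900000 for Arid5b (360 kb) and on chromosome 16 from 42850000 to 43660000 for Zbtb20 (810 kb). Of the 79107 peaks called for Sox6 the windows held 202, of the 23865 for Sox9 they held 46, and together 248 of 102972.

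The Sox6 peaks come from 1 ChIP with an anti-Sox6 antibody, with 1 input DNA library as its counterpart. Both were made from untreated wild-type ICR mice at postnatal day 1, whose ribs were dissected without the mature hypertrophic cartilage. The Sox9 peaks are the authors' renewed calls on 2 earlier rib chondrocyte samples. The sources used here do not give the strain, age, genotype or treatment of those animals. The lists hold positions only, so depth is unknown, there is no replicate error, the input could not be set beside single peaks, and the chondrocyte label could not be checked against marker expression. Because the lists were made from separate experiments, a difference between them cannot be told apart from a difference of antibody, animals or depth.

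SOX9 is the HMG-box factor on which cartilage formation depends. SOX6 is a related factor of the SOXD group that has no activation domain of its own and acts beside SOX9 on cartilage enhancers, often with its close relative SOX5. TRPS1 is an atypical GATA-type zinc finger protein that represses transcription. Its loss in humans gives tricho-rhino-phalangeal syndrome with cone-shaped epiphyses, and it acts in chondrocyte proliferation and maturation. ARID5B is a DNA-binding protein with an AT-rich interaction domain that works as a partner of SOX9 by bringing the histone demethylase PHF2 to SOX9 target genes. ZBTB20 is a BTB-domain zinc finger repressor needed for terminal differentiation of growth plate chondrocytes.

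No mm9 annotation was used, so a peak is assigned to a window and not to a promoter, an exon or an intron, and the gene that a peak acts on is unknown. In the RefSeq gene table of the later build GRCm38.p6, which served for gene order only, the protein-coding neighbours of Trps1 are Csmd3 and Eif3h and those of Arid5b are Rtkn2 and Cabcoco1. Zbtb20 lies between Gap43 and Drd3. It is overlapped by 9 genes, of which Tigit, an immune receptor gene, is the only protein-coding one. Trps1 is overlapped by the microRNA gene Mir1907 and Arid5b by 1 gene that is not protein-coding. Peaks where genes overlap cannot be assigned to either gene. The sequence under the peaks was not analysed here.

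All 3 windows were dense in Sox6 peaks, but only the Zbtb20 window stood as high among stretches of its length for Sox9. The Trps1 window held 57 Sox6 peaks, or 184 per Mb, which is 5.68 times the autosomal density. The Zbtb20 window held 110, or 136 per Mb (4.20 times), and the Arid5b window 35, or 97.2 per Mb (3.00 times). For Sox9 the order of the windows was different. There were 36 Sox9 peaks in the Zbtb20 window, 44.4 per Mb and 4.51 times the autosomal density, against 6 at Trps1 (19.4 per Mb, 1.96 times) and 4 at Arid5b (11.1 per Mb, 1.13 times). Trps1 thus had 9.50 Sox6 peaks for each Sox9 peak and Arid5b 8.75, whereas Zbtb20 had 3.06, near the 3.31 of the lists as wholes.

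Each window was also set beside all tiles of its own length along the autosomes, as a description without a test. The tiles take in gene-poor and unmappable stretches, and these windows were placed around genes. Only 29 of 7956 tiles of 310 kb (0.365%) held as many Sox6 peaks as the Trps1 window, but 20.2% held as many Sox9 peaks. At Arid5b, 5.74% of tiles reached its Sox6 number and 35.4% its Sox9 number. At Zbtb20, 0.362% of tiles reached the Sox6 number and 0.823% the Sox9 number, so that this window was among the densest for both factors. The median tile held 6 Sox6 peaks at 310 kb, 7 at 360 kb and 20 at 810 kb.

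**Figure D1:**
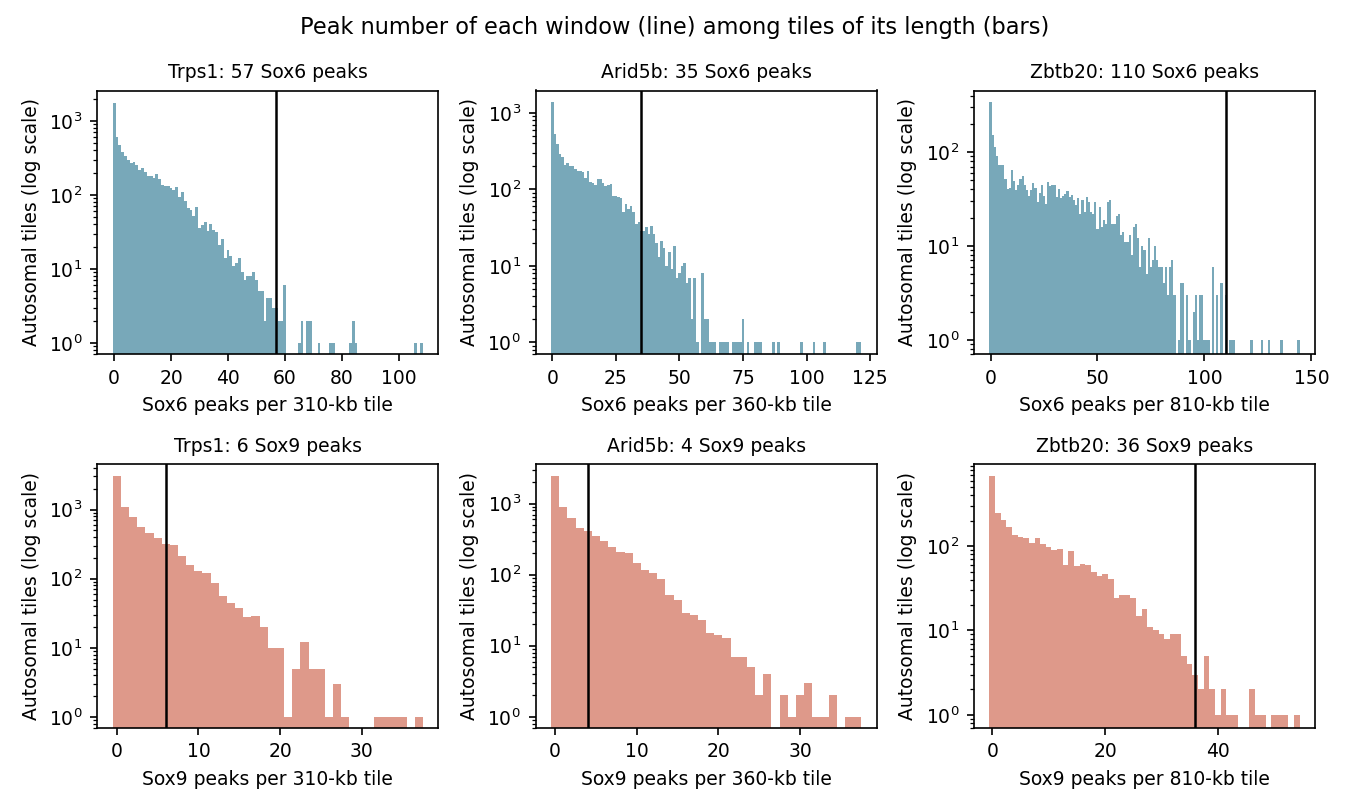
Number of Sox6 peaks (upper row) and Sox9 peaks (lower row) in autosomal tiles as long as each window, with the number of tiles on a log axis. The black line marks the window: 57 and 110 Sox6 peaks at Trps1 and Zbtb20 lie near the end of the upper bars and 35 at Arid5b in their upper tail, while 6 and 4 Sox9 peaks at Trps1 and Arid5b lie within the body of the bars.

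Most Sox9 peaks of these windows, 39 of 46, sat on a Sox6 peak, and most Sox6 peaks had no Sox9 peak on them. An overlap of at least 1 bp was counted as shared. All 6 Sox9 peaks at Trps1 (95% exact binomial interval, Clopper-Pearson, 54.1 to 100%), all 4 at Arid5b (39.8 to 100%) and 29 of 36 at Zbtb20 (80.6%, 64.0 to 91.8%) were shared, against 76.7% of the whole Sox9 list. All 3 intervals take in the whole-list share. Seen from Sox6, 6 of 57 peaks at Trps1 (10.5%, 3.96 to 21.5%), 4 of 35 at Arid5b (11.4%, 3.20 to 26.7%) and 30 of 110 at Zbtb20 (27.3%, 19.2 to 36.6%) were shared, against 23.1% of the whole Sox6 list. The interval of Trps1 lay below the whole-list share, and those of Arid5b and Zbtb20 included it. The intervals cover counting error only and treat neighbouring peaks as independent, which they are not.

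The 3 pairs of windows were compared by their Sox6 shares with Fisher's exact test, two-sided, with Benjamini-Hochberg adjustment over the 3 pairs. The share at Trps1 minus that at Zbtb20 was -16.7 percentage points (Fisher's exact p = 0.0164, adjusted p = 0.0492). For Arid5b minus Zbtb20 it was -15.8 points, which did not pass (exact p = 0.0671, adjusted p = 0.101), and for Trps1 minus Arid5b -0.902 points (exact test, adjusted p = 1.00). The first of these passed narrowly: with an overlap of 50% of each of the peaks required it was -4.80 points (Fisher's exact adjusted p = 1.00), and in the first 50% of each list -17.8 points (exact test, adjusted p = 0.230). These tests also count peaks as independent, so their p-values may be too small. At Zbtb20, 2 of the shared Sox6 peaks overlap each other on 1 Sox9 peak. No test with such neighbours merged is given.

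**Figure D2:**
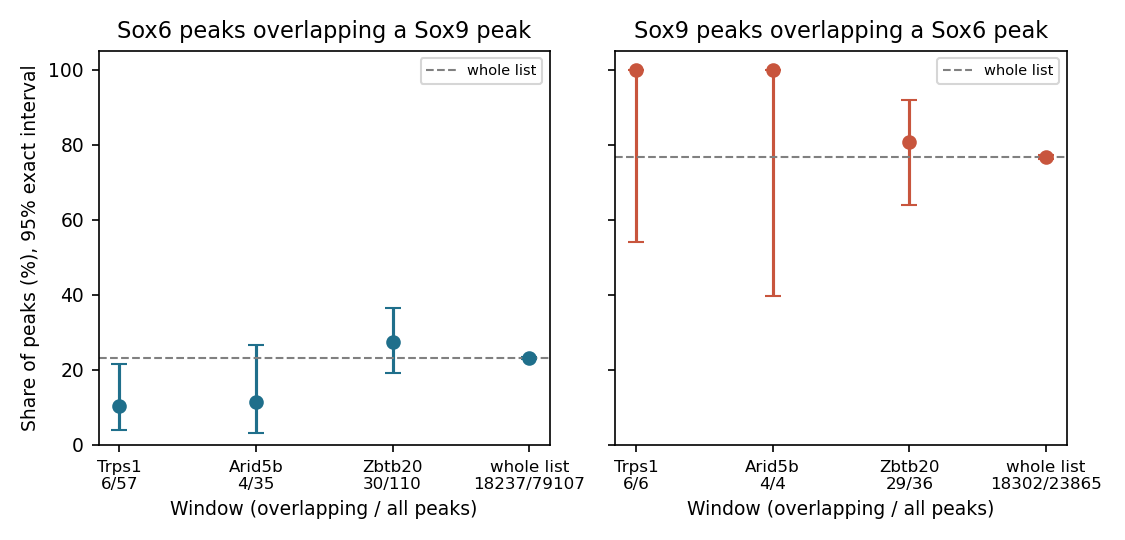
Share of Sox6 peaks that overlap a Sox9 peak (left) and of Sox9 peaks that overlap a Sox6 peak (right), in percent, for each window and the whole list, with 95% exact binomial intervals and the counts under each point. Trps1 and Arid5b lie at 10.5% and 11.4% on the left and at 100% on the right.

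Where a peak stands in its list was used as a further description. The order of the lists is not documented and they carry no score, but shared peaks come earlier in both lists as wholes, as was known before these windows were chosen. A place is given as a number from the top or as a percentage of the list. The Sox6 peaks at Trps1 were placed late, at a median of 71.1% of the list, and 23 of the 57 fell in its last 25%. Those at Arid5b and Zbtb20 had medians of 48.2% and 52.4%. The shared Sox6 peaks came early in each window, at medians of 13.2% at Trps1, 3.16% at Arid5b and 22.8% at Zbtb20, against 73.9%, 48.3% and 65.4% for the unshared ones. In the whole Sox6 list these medians were 19.4% and 58.6%, so an early place of shared peaks is not particular to the windows. The shared medians at Trps1 and Arid5b rest on 6 and 4 peaks. Sox9 peaks had medians of 45.7%, 45.0% and 49.5% in the same order of windows.

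The shares were also read by place. In the first 25% of the Sox6 list, where 54.0% of all peaks were shared, 5 of 10 peaks at Trps1, 4 of 10 at Arid5b and 19 of 23 at Zbtb20 were shared. In the rest of the list 1 of 47 Sox6 peaks was shared at Trps1, none of 25 at Arid5b and 11 of 87 at Zbtb20 (12.6%), beside 12.7% of all Sox6 peaks in that part. For Arid5b a rough upper limit, at 3 counts, is 12.0%. It is not an exact interval like those above, so it does not place Arid5b below the list. Had every peak been shared at the rate of its own 5% step of the whole list, 9.83 of the 57 peaks at Trps1, 8.57 of the 35 at Arid5b and 22.9 of the 110 at Zbtb20 would have been shared, where 6, 4 and 30 were. This standardised count was chosen after the shares had been seen and carries no test.

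**Figure D3:**
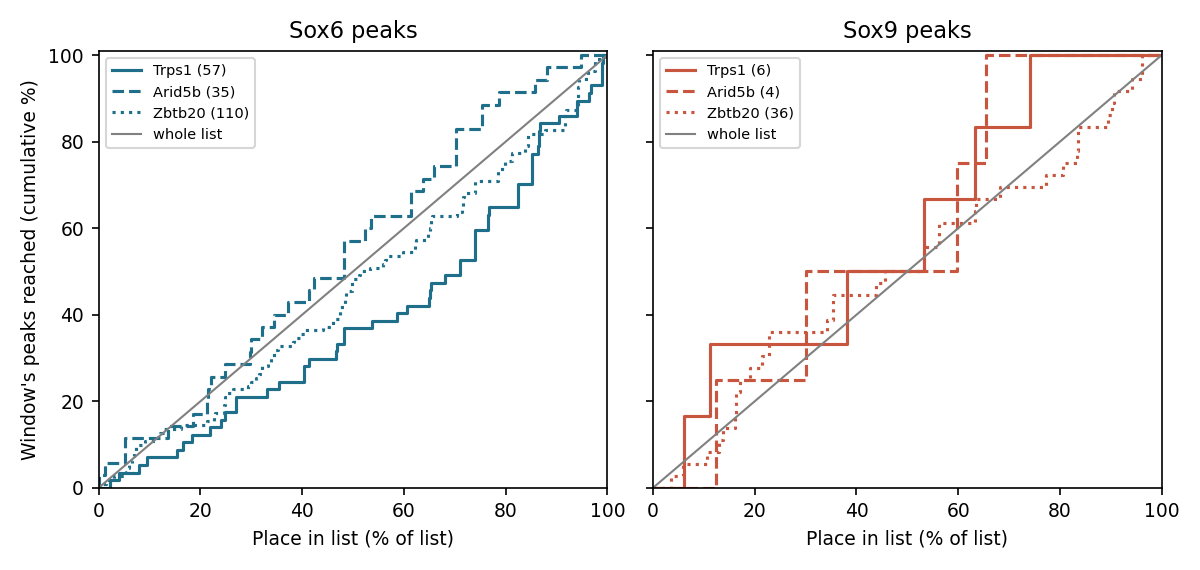
Cumulative percentage of the peaks of each window reached on going down the Sox6 list (left) or the Sox9 list (right), with the grey diagonal for the whole list. The Sox6 curve of Trps1 runs under the diagonal, with its median at 71.1% of the list, and that of Arid5b runs at or above it for most of its length.

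At Trps1 the Sox9 peaks formed a lower and an upper group. The lower group of 3 lay within 8.19 kb, from 50527245 to 50535432, and was the only Sox9 cluster of the window, a cluster being at least 3 peaks of a list in a row with no step between centres above 12.5 kb. It held the first-placed Sox9 peak of the window (50527245 to 50527413, place 1447), which lay wholly inside the first-placed Sox6 peak (50527179 to 50527432, place 1713). The centres of this pair were 23.5 bp apart. A Sox9 peak from 50535342 to 50535432 (place 2694) met the Sox6 peak from 50535431 to 50535495 (place 6341) by only 2 bp, with centres 76 bp apart. Between them, the Sox9 peak from 50529442 to 50529663 (place 9114), the widest of the window at 222 bp, shared 205 bp with a Sox6 peak at place 14527.

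The upper group was ranked differently by the lists. The Sox9 peak from 50701864 to 50702076 came late, at place 17700 (74.2% of its list), but its Sox6 partner from 50701881 to 50702071 was the second of the window, at place 3102 (3.92%), with centres 6 bp apart. The Sox9 peak from 50740934 to 50741105 (place 12711) and the Sox6 peak around it (50740898 to 50741136, place 51641) had centres 2.5 bp apart, the closest pair of the window. The remaining Sox9 peak, from 50720034 to 50720144 (place 15093), overlapped a Sox6 peak at place 17239 by 29 bp. In 5 of the 6 pairs of this window the Sox6 peak stood earlier in its list, in percent, than the Sox9 peak in its own, and the pair at 50740934 was the exception. The same order held in 20 of 29 pairs at Zbtb20 and in 13778 of the 18297 pairs of the whole lists (75.3%), so it does not set this window apart. It rests on the place in percent, and the Sox6 list is 3.31 times as long as the Sox9 list. By place number, most Sox6 peaks of the 6 pairs came later than their Sox9 partners.

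Most Sox6 peaks at Trps1 lay in clusters with few or no Sox9 peaks. Of the 57 peaks 55 lay in 6 clusters, and 4 of these clusters contained no shared peak. No share over all Sox6 clusters is given beside this, so it cannot be called a trait of Trps1. The fullest ran for 36.0 kb from 50687243 to 50723270, with 25 Sox6 peaks at a median spacing of 688 bp, of which 2 were shared. Among the 5 earliest Sox6 peaks of the window, 2 lay in it without a Sox9 peak on them, from 50715978 to 50716097 (place 7574) and from 50701064 to 50701199 (place 12194). The centre of the latter was 838.5 bp from a Sox9 centre. Between 50535433 and 50701863, over 166 kb, no Sox9 peak was called, and 20 Sox6 peaks had their centres there. These include the shared Sox6 peak from 50535431 to 50535495, which meets the Sox9 peak at the lower end by 2 bp. The others were unshared. The widest Sox6 peak, at 472 bp, lay from 50519283 to 50519754 at place 56213, and the longest stretch without a Sox6 peak was 34.3 kb.

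At Arid5b each of the 4 Sox9 peaks sat on an early Sox6 peak in a Sox6 cluster of its own. The fourth peak of the entire Sox6 list lay in this window, from 67817656 to 67817778, wholly inside a Sox9 peak from 67817560 to 67817848 (place 2969, 12.4% of its list), with centres 13 bp apart. This Sox9 peak was the earliest and, at 289 bp, the widest of the window. The second pair was a Sox6 peak from 67567855 to 67567985 (place 918), again inside a Sox9 peak, from 67567795 to 67568007 (place 7182), with centres 19 bp apart. The third was a Sox6 peak from 67599357 to 67599489 (place 4082) with a Sox9 peak from 67599323 to 67599478 (place 14275), 22.5 bp apart. In the fourth, a Sox6 peak from 67745916 to 67746082 (place 14693) and a Sox9 peak from 67745953 to 67746105 (place 15607) were 30 bp apart. In all 4 pairs the Sox6 peak stood earlier in its list than the Sox9 peak in its own, at 0.00506 to 18.6% against 12.4 to 65.4%, the order also found in 75.3% of such pairs of the whole lists.

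The Sox9 peaks of this window were far apart and formed no cluster, with 146 kb between the second and the third along the chromosome, a stretch that held 20 Sox6 peaks. Most of the Sox6 peaks fell into 6 clusters, of which 4 contained 1 shared peak each, also with no share over all clusters beside it. The fullest had 10 peaks over 33.2 kb from 67598297 to 67631496. A cluster of 9 peaks from 67726221 to 67746082 contained the early Sox6 peak from 67738262 to 67738388 (place 4154), which was unshared and 7704 bp from the nearest Sox9 centre. The fifth of the earliest Sox6 peaks, from 67819390 to 67819595 (place 10764), was also unshared and lay 1788.5 bp from a Sox9 centre. Another cluster ran over the upper edge of the window, with only 1 of its 5 peaks inside. The widest Sox6 peak, at 431 bp, lay from 67654205 to 67654635, and the longest stretch without a Sox6 peak was 70.4 kb, next to the cluster with the fourth-placed peak.

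At Zbtb20 shared peaks ran along most of the window. The earliest Sox6 peak, from 43458950 to 43459083 (place 616), overlapped the second-earliest Sox9 peak, from 43458850 to 43459047 (place 1430), with centres 68 bp apart. Sox6 and Sox9 order did not always go together. The Sox6 peak from 42907569 to 42907714 (place 1172) met a Sox9 peak of only 21 bp, from 42907698 to 42907718, at place 21562 (90.3% of the list). In the other direction, the earliest Sox9 peak, from 43110464 to 43110708 (place 862), lay over a Sox6 peak at place 31278 (39.5%). The Sox6 peak from 43335481 to 43335672 (place 2407) lay inside a Sox9 peak at place 19224, with centres 4 bp apart.

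Other early peaks of the Zbtb20 window followed the same variety. The Sox6 peak from 43547138 to 43547269 (place 4422) overlapped a Sox9 peak at place 10480 by 68 bp. The third Sox9 peak by place, from 43191496 to 43191565 (place 2522), lay inside a Sox6 peak at place 5841, and the fourth, from 43403387 to 43403616 (place 3091), overlapped a Sox6 peak at place 5473 by 137 bp. Near the low end of the window, 1 Sox9 peak, from 42874187 to 42874415, met 2 overlapping Sox6 peaks, which is why 29 Sox9 peaks answer to 30 Sox6 peaks. The first of these Sox6 peaks, from 42873922 to 42874393, was the widest of the window at 472 bp. The widest Sox9 peak, at 413 bp, lay just above, from 42875489 to 42875901, and touched a Sox6 peak by 3 bp.

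Of the 7 unshared Sox9 peaks at Zbtb20, 6 had a Sox6 centre within 1000 bp, as had 3271 of the 5563 unshared peaks of the whole Sox9 list. With only 7 peaks this difference was not tested. The window was also 4.20 times as dense in Sox6 peaks as the autosomes, so a near Sox6 centre is no separate trait of these peaks. The earliest, from 43539614 to 43539794 (place 3267), was 428 bp from the centre of an unshared Sox6 peak, from 43540084 to 43540180 (place 4315), which is itself among the 5 earliest Sox6 peaks of the window. These peaks of 181 and 97 bp thus lay side by side without touching. The second, from 43593052 to 43593205 (place 3924), was 1463.5 bp from a Sox6 centre, and the third, from 43429642 to 43429869 (place 13417), 574.5 bp. When edges up to 1000 bp apart also counted, 35 of the 36 Sox9 peaks (97.2%) had a Sox6 peak. Most of the whole Sox9 list would count too. Of its 23865 peaks 18302 overlapped a Sox6 peak, and a further 3271 had a Sox6 centre within 1000 bp.

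Of the 110 Sox6 peaks at Zbtb20, 99 lay in 14 clusters, and 12 of these contained a shared peak, again with no share over all clusters beside it. The 2 fullest had 15 peaks each. The one from 43536159 to 43559401 held 5 shared Sox6 peaks and 7 Sox9 peaks over 23.2 kb, and the fullest Sox9 cluster, of 7 peaks from 43539614 to 43559472, overlapped it. The other, from 42907569 to 42947336, held 3 shared peaks, all in its lower part. A cluster of 9 Sox6 peaks from 43489750 to 43521566 had none. The longest stretch without a Sox6 peak was 88.1 kb, from 42947337 to 43035439, and it lay within the longest stretch without a Sox9 peak, 179.9 kb.

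**Figure D4:**
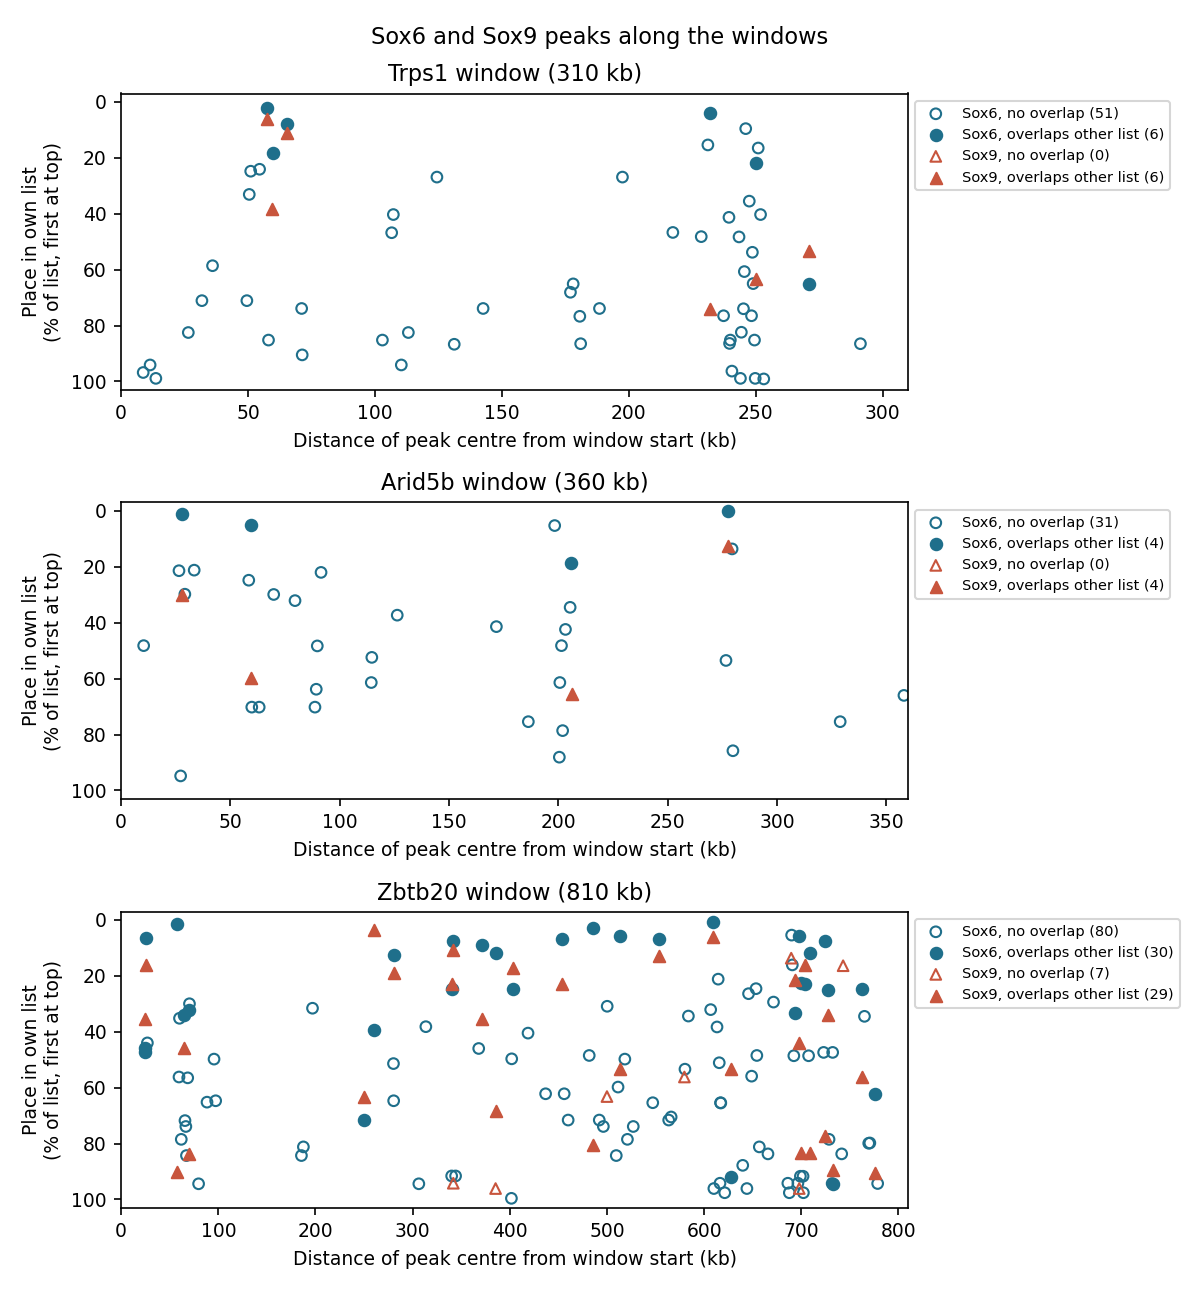
Every Sox6 peak (circles) and Sox9 peak (triangles) of the windows, by distance of its centre from the window start in kb and by its place in its own list in percent, with the first places at the top. Filled marks overlap the other list: at Trps1 and Arid5b they are 6 and 4 per list in separate spots, and at Zbtb20 30 Sox6 and 29 Sox9 peaks run along most of the window.

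Shared centres were close in all 3 windows, which follows in part from counting only overlapping peaks as shared. The median distance between the centre of a shared Sox9 peak and the nearest Sox6 centre was 49.75 bp at Trps1 (2.5 to 106), 20.75 bp at Arid5b (13 to 30) and 48.5 bp at Zbtb20 (4 to 361), beside 40.5 bp in the whole Sox9 list. Unshared Sox6 peaks lay at medians of 7698 bp, 5571 bp and 3658 bp from a Sox9 centre at Trps1, Arid5b and Zbtb20, nearer than the 15935 bp of the whole list. Sox6 peaks had median widths of 174, 159 and 160.5 bp in these windows, beside 151 bp in the whole list. Clusters held 96.5%, 91.4% and 90.0% of the Sox6 peaks, beside 62.9% in the whole list, and no test of these differences was run. Clusters are defined by a fixed step between peaks, and all 3 windows were denser than the autosomes in peaks of both lists. The clustered shares and the distances of unshared peaks may thus restate those densities in part, and are not separate traits of the loci.

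The members depend on where the windows end. The outermost Sox6 peaks inside were 8.68 kb from the lower and 18.8 kb from the upper edge at Trps1, 10.3 and 1.90 kb at Arid5b, and 24.2 and 31.3 kb at Zbtb20. The nearest Sox6 peaks outside were 27.5 and 26.5 kb away at Trps1, 13.0 and 3.58 kb at Arid5b and 46.1 and 38.1 kb at Zbtb20. The Arid5b window is therefore the one whose upper edge passes through a group of peaks. The core letters of SOX binding sites, ACAAT on either strand, were searched in the RefSeq promoters of build GRCm38.p6, which matched Arid5b and Zbtb20 with 1 promoter each. Neither of these windows of 250 bases before to 50 after the gene start holds the letters, which 31.0% of all 32851 promoters do, and no peak could be placed on them.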

How the data were processed

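Both lists are called peaks as deposited by the authors, with 3 columns (chromosome, start, end) and no score or read count. Per the submitters' processing notes, Bowtie (no version) and mm9 were used for the Sox6 and input samples. For the Sox9 list no build is given, and mm9 was assumed from its overlap with the Sox6 list. The peak caller is not given in the sources used here. The names of both lists carry the label FDR1, but the sources do not describe the threshold behind it. Starts, counted from 0 in the files, are printed counted from 1. Peak centres were assigned to the windows, and overlaps, centre distances, clusters and tiles were computed with Python 3.11.15, pandas 2.3.3 and numpy 2.4.6, and intervals and Fisher's exact test with scipy 1.17.1. The functions were tested on simulated data. Autosomal densities divide peak numbers by the range from first to last peak of each chromosome. Tiles start at the chromosome's beginning.

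In each window the text names the 5 earliest peaks and the widest peak of each list, the fullest cluster, the unshared Sox9 peaks (the 3 earliest where there are more than 5) and the longest stretch without Sox6 peaks. Any other peak or cluster was named with its values in view. The windows and lists were chosen with earlier results of these data known. Counts in windows of other chondrocyte regulators and motif counts in peaks, which need an mm9 genome, were not run. The settings varied were the overlap (50% of each peak, centres at most 250 bp apart, edges at most 1000 bp apart), the part of the list (its first 50%, or as many Sox6 as Sox9 peaks), merged neighbours, trimmed windows and cluster gaps of 5000 and 25000 bp.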

Additional observations from a re-analysis of the deposited data

How the results depend on the processing

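Shares moved beyond their intervals in 4 cases at equal list lengths and in 4 with another overlap rule. With the first 23865 Sox6 peaks, as many as the Sox9 list holds, the windows kept 12 Sox6 peaks at Trps1, 12 at Arid5b and 27 at Zbtb20, of which 41.7%, 33.3% and 74.1% were shared, while 55.6% of the Sox9 peaks at Zbtb20 met one of them. Under a required overlap of 50% of each peak, 11.8% of Sox6 and 36.1% of Sox9 peaks at Zbtb20 were shared, and with a gap of up to 1000 bp 41.8% and 97.2%. No whole-list share is given under these settings, so these shares do not place a window above or below its list. Early Sox6 peaks were shared more often in the list as a whole. In the early part of the Sox6 list read by place above, 54.0% of all peaks were shared, against 23.1% of the entire list. In the first 50% of each list there were 21, 20 and 53 Sox6 peaks and 3, 2 and 18 Sox9 peaks at Trps1, Arid5b and Zbtb20, as fewer peaks enter by construction. The lower Sox6 share at Trps1 than at Zbtb20 kept its direction but did not pass the threshold with the 50% overlap (-4.80 percentage points), in the first 50% of each list (-17.8) or at equal list lengths (-32.4, Fisher's exact adjusted p = 0.112), where fewer peaks are tested. With centres within 250 bp the counts of shared peaks in these windows were those of the main rule, so that setting is no separate check. With the gap of up to 1000 bp the difference was -22.5 percentage points and passed (Fisher's exact adjusted p = 0.0107). With a cluster gap of 5000 bp the Sox9 clusters numbered 0 at Trps1 and 2 at Zbtb20, and with 25000 bp there were 2 Sox9 clusters at Trps1, and 3 Sox6 clusters at Trps1 and 5 at Zbtb20, because neighbouring clusters merge or short runs join. Merging overlapping neighbours or trimming the outer 10% of each window at both ends moved no count by over 1.5 times. No paired analysis was possible because each list is a single sample or a single set of calls and the input sample has no peak list.

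With 1 list per factor and no read counts, no value carries a replicate error, and a missing Sox9 peak does not show that Sox9 was absent there.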

Other observations

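Some peaks of a window stood close to each other in the lists. Of the 110 Sox6 peaks at Zbtb20, 46 had another Sox6 peak of the same window within 10 places in the list of 79107, and 34 of these 46 were past the first 50% of the list. The counts were 15 of 57 at Trps1 and 9 of 35 at Arid5b, and 12 of the 36 Sox9 peaks at Zbtb20 had such a neighbour. No such count is given for the whole lists or for other windows, so these counts cannot be called a trait of these loci. At Arid5b the Sox6 peaks at places 55508, 55509 and 55510 had centres spread over 28.9 kb, and at Trps1 places 78225 and 78226 were peaks with centres 5.81 kb apart. Other peaks at adjacent places were far apart on the chromosome, by 73.1 kb at Trps1 (places 21274 and 21275) and by 383 kb for Sox6 and 313 kb for Sox9 at Zbtb20. What sets the order of the lists was not tested.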
